A study of Mus musculus with 8 samples.

Results

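Transcripts of Jak2V617F 32D cells that had lost both glucose transporters GLUT1 and GLUT3 (GLUT1/3 dKO) were compared with those of Jak2V617F cells that kept them (GLUT1/3 WT). This comparison uses 4 of the 8 libraries of the series, from GLUT1/3 WT clones 1 and 3 and GLUT1/3 dKO clones 1 and 3. Of 56748 genes in the table, 11275 reached an FPKM of 1 in 2 or more of these 4 libraries, and these were tested. FPKM is the number of fragments on a gene, scaled to the gene's length and to a library total. The other 4 libraries came from GLUT1/3 WT and dKO clones of the Jak2WT background. They entered the test through the spread between clones, and their values are given beside some of the results.

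32D is a mouse myeloid cell line that depends on interleukin-3 (IL-3). All clones carried a further transgene shared by all groups together with murine Jak2WT or Jak2V617F, the constitutively active kinase of myeloproliferative neoplasms. Each clone was grown from a single cell after CRISPR editing of Slc2a1 and Slc2a3 in the dKO groups. All groups were kept for 24 h in RPMI with 5 mM glucose, 1 mM glutamine, 10% serum and 2 ng/ml IL-3, without pyruvate. Every Jak2V617F dKO clone is listed by the study with the same Slc2a1 deletion, which is also listed for clones that lost GLUT1 alone, and the Slc2a3 edits differ between the dKO clones. The 32D cells were cloned once before editing, and whether the dKO clones share an edited founder is not stated. With 2 clones a group, differences that arose in single founder cells cannot be told apart from effects of the dKO.

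Glucose that enters through GLUT1 and GLUT3 feeds glycolysis, the pentose phosphate pathway and the nucleotide sugars used to glycosylate proteins in the endoplasmic reticulum (ER). Cells that fold glycoproteins poorly raise ER chaperones through the unfolded protein response, whose sensors are PERK, IRE1 and ATF6. Cells short of amino acids, or with PERK active, phosphorylate eIF2alpha and translate ATF4, which raises amino acid synthesis and transport genes, the integrated stress response. Entry into S phase depends on E2F transcription factors, which act on genes for DNA replication and for the supply of deoxynucleotides.

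A guide for each transporter gene shows where in the gene a cut was made. They were matched to GRCm39, and the capitals mark the PAM next to each protospacer:
Slc2a1 guide: caaacatggaaccaccgctaCGG
Slc2a3 guide: ggactctttgtcaaccgcttTGG
The Slc2a1 protospacer had 1 perfect match, chr4:118989341-118989360 on the forward strand, in exon 3 of its annotated transcript and within the coding sequence. The Slc2a3 protospacer also had 1 perfect match, chr6:122716798-122716817 on the reverse strand, in coding exon 3 of its annotated transcript, which the study numbers otherwise. FPKM counts reads over all exons, so that transcript levels do not measure the loss of protein.

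Slc2a1, which encodes GLUT1, had an FPKM of 64.0 and 52.97 in GLUT1/3 WT clones 1 and 3, and of 17.3 and 12.7 in dKO clones 1 and 3. That is a log2 fold change of -1.90 with a standard error of 0.15 (limma adjusted p = 0.000368). Slc2a3, which encodes GLUT3, had 199 and 166 in the WT clones and 48.2 and 23.8 in the dKO clones (log2 fold change -2.39, standard error 0.49, limma adjusted p = 0.0103). Both dKO clones lay below both WT clones for each transporter, and the Slc2a3 call was lost without WT clone 1 (limma adjusted p = 0.0549) and with no filter (0.0557). Jak2 itself had 139.8 and 139.4 in the WT clones and 152 and 165 in the dKO clones, and this difference of 0.18 on the log2 scale was not called (limma adjusted p = 0.155). Reads were not assigned to the wild-type or V617F allele.

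Recovered reads on genes ranged from 22854600 to 33868334 over the 4 libraries. The clones were of mixed blood-lineage character. Of 12 markers of myeloblasts and granulocyte progenitors, 7 were under an FPKM of 1 in all 4 libraries, among them Mpo and Elane, and the summed FPKM of all 12 was 191 to 199 in the WT clones and 140 to 144 in the dKO clones. Csf2rb carried this difference, and Cst7, another of the 12, went the other way, to 63.5 and 58.2 from at most 33.5 in the WT clones. The 14 erythroid markers summed to 703 to 1063 in the WT clones and 2714 to 4808 in the dKO clones, and 3 of the 14 were under 1 in all 4 libraries, among them Alas2 and Slc4a1. The sum is carried by the globins: Rhag, another of the 14, had 133 in both WT clones and 89.3 and 97.3 in the dKO clones, Epb42 had 5.82 and 4.89 and then 4.41 and 4.38, and neither passed the test. Markers of lymphoid cells summed to at most 0.708 in any of the 4 libraries and those of mast cells and basophils to at most 2.42. The 7 late neutrophil markers summed to 1.78 to 2.48 in the WT clones, to 1.55 in dKO clone 1 and to 14.3 in dKO clone 3, of which Ngp alone was 8.76. In bulk RNA, more cells of a type and more RNA per cell cannot be told apart.

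At a limma adjusted p under 0.05, 1645 genes (14.6% of those tested) were higher in the dKO clones and 1958 (17.4%) were lower, together 32.0%. Each count of called genes in a list below is to be read beside these shares. Among the called genes, 289 rose and 237 fell by at least 1 on the log2 scale. The median log2 fold change of all genes tested was -0.03. Both dKO clones lay on one side of both WT clones for 65.2% of all genes tested, and for all 3603 genes called. For 1 gene taken alone the smallest two-sided p of an exact permutation test with 2 clones a group is 0.33. The calls therefore draw on the spread of all genes and of all 4 groups. Scaling each library to the same FPKM total gave 2233 higher and 1474 lower genes and moved the share of higher genes among those called from 45.7% to 60.2%. A fit of the Jak2V617F groups alone gave 878 higher and 1002 lower. Of the genes tested, 245 reached an FPKM of 1 only in the dKO clones and 133 only in the WT clones, and these passed the filter through 1 group. The difference between the dKO and WT clones itself differed between the Jak2V617F and Jak2WT backgrounds for 1269 genes (11.3%), and 982 of them were among the 3603 called in Jak2V617F. This count fell to 420 without WT clone 1, to 841 without WT clone 3 and to 346 with no filter.

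Of the 15 largest increases, 5 were globin genes. Hbb-bs, an adult beta-globin, went from 110 and 50.5 FPKM in WT clones 1 and 3 to 2209 and 1437 in dKO clones 1 and 3. Its log2 fold change was 4.56 (limma adjusted p = 0.000368). In Jak2WT that of Hbb-bs was 4.22 (limma adjusted p = 0.0016), and the difference between backgrounds did not pass (limma adjusted p = 0.69). The embryonic globins Hbb-y and Hba-x had 2.80 and 0.398 in WT clone 1 and 0.424 and 0.179 in WT clone 3, and reached 110 and 24.6 in dKO clone 1 and 26.6 and 6.72 in dKO clone 3. Globin genes of a cluster are near-identical in parts, so that the counting could have moved reads between Hbb-bs and Hbb-bt or between Hba-a1 and Hba-a2. Kel, an erythroid blood group metalloprotease, went from 10.8 and 11.1 to 85.7 and 69.1 (log2 fold change 2.71, limma adjusted p = 0.00029). All of these rose in both dKO clones, and the globins other than Hbb-bh1 stood higher in dKO clone 1 than in dKO clone 3.

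The platelet chemokines Ppbp and Pf4 were at 0 in WT clone 1 and at 0.155 and 0.326 in WT clone 3. In dKO clone 1 they reached 18.5 and 28.2 FPKM, and in dKO clone 3 only 3.92 and 2.04. Pf4 was the less certain of the pair: its limma adjusted p was 0.0335 and rose to at most 0.133 over the alternatives, with the call lost in 6 of them, among them voom on the recovered reads. Alox5, the 5-lipoxygenase that starts leukotriene synthesis, went from 0.580 and 0.784 to 20.3 and 9.28. Cxcr2, a chemokine receptor of neutrophils, went from 4.31 and 4.68 to 29.7 and 21.0, and Ecm1, an extracellular matrix protein, from 1.05 and 1.33 to 19.7 and 6.32. The phosphate-regulating hormone gene Fgf23 stood at 20.3 and 11.8 in the WT clones and at 78.0 and 79.9 in the dKO clones. Serpina3g, a serine protease inhibitor, was uneven between the dKO clones, as Pf4 was, at 2.84 and 6.25 in the WT clones and 13.1 and 77.4 in the dKO clones, and its call was lost in 6 alternatives, among them those without WT clone 1, WT clone 3 or dKO clone 3, with limma adjusted p of at most 0.134. Sval1 and Ifi47, the latter an interferon-inducible GTPase, made up the rest, with log2 fold changes of 3.60 and 2.23. Hba-x, Ppbp, Pf4, Alox5 and Sval1 passed the filter only through the dKO clones, and Gng2, among the decreases, only through the WT clones.

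Wwox, an oxidoreductase encoded across a common fragile site on chromosome 8, fell the most, from 26.8 and 23.01 FPKM in WT clones 1 and 3 to 1.49 and 1.58 in dKO clones 1 and 3 (log2 fold change -3.35, limma adjusted p = 3.16e-05). The 4 Jak2WT libraries had 1.59 to 1.85, so that the WT clones of Jak2V617F stood apart from the other 6 libraries. Anxa1, a phospholipid-binding protein that limits inflammation, fell from 19.1 and 20.4 to 0.721 and 1.58. Cfp, the complement regulator properdin, fell from 33.1 and 49.4 to 2.52 and 6.24, and C3, the central complement component, from 21.1 and 12.9 to 2.73 and 3.18. Gng2, a G protein gamma subunit, was at 9.80 and 9.91 in the WT clones and at 0.197 and 0.795 in the dKO clones. Pde3b, a cyclic nucleotide phosphodiesterase, went from 56.8 and 65.6 to 6.44 and 11.5, and St8sia4, which adds polysialic acid, from 13.4 and 16.2 to 2.35 and 0.854.

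The other large decreases went from mitophagy to lysosomal proteolysis. Bnip3, a mitophagy receptor, fell from 208 and 190 to 39.0 and 30.3. Ankrd37, a small hypoxia-induced protein, fell from 14.5 and 15.7 to 2.52 and 1.91. Tnfrsf9, the costimulatory receptor 4-1BB, fell from 24.1 and 20.6 to 3.03 and 4.21. Lgmn, a lysosomal asparaginyl endopeptidase, fell from 158 and 130 to 25.6 and 21.0. Xdh, the xanthine oxidoreductase of purine breakdown, was at 11.2 and 14.7 in the WT clones and at 0.915 and 1.99 in the dKO clones. In Jak2WT, by contrast, Xdh was higher in the dKO (log2 fold change 1.19, limma adjusted p = 0.0189). The tetraspanin Cd53 fell from 473 and 526 to 44.1 and 167, with dKO clones that differed from each other by several-fold and a call lost with no filter (limma adjusted p = 0.0547), and Epdr1 fell from 46.1 and 41.9 to 6.37 and 13.4.

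**Figure D1:**
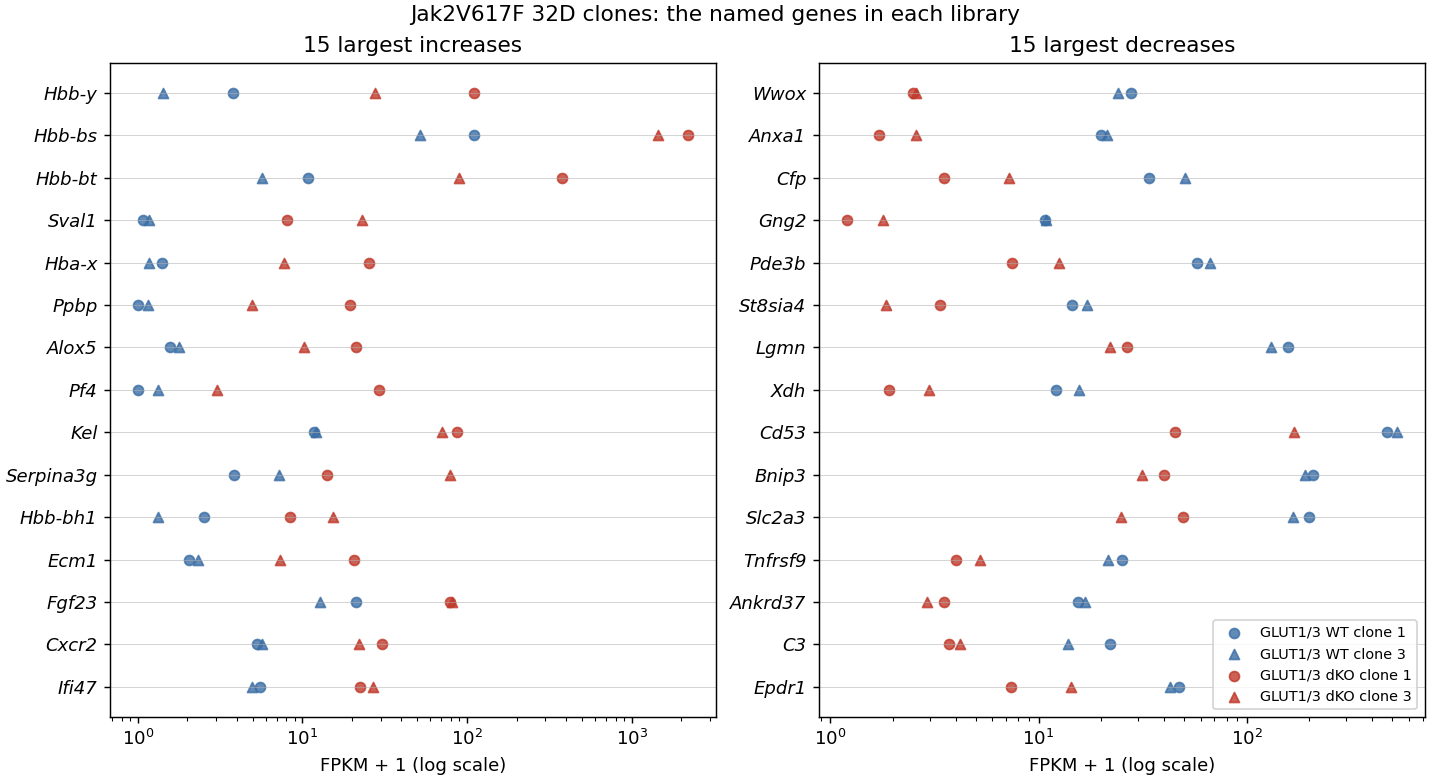
FPKM + 1 (horizontal log axis) of the 15 largest increases and the 15 largest decreases among protein-coding genes called, with 1 point per library (blue, GLUT1/3 WT clones; red, dKO clones; circles, clone 1; triangles, clone 3). The red and blue points do not overlap for any gene, which the choice of the genes required, and the dKO clones lie far apart for Pf4, Serpina3g and Cd53.

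The ER chaperone genes rose together. Of 22 listed, all 22 were tested, and 16 were higher and 2 lower, with a median log2 fold change of 0.81 beside -0.03 for all genes. Hspa5, which encodes the master ER chaperone BiP, went from 190 and 152 FPKM in WT clones 1 and 3 to 472 and 500 in dKO clones 1 and 3 (log2 fold change 1.51, limma adjusted p = 0.00033). Sdf2l1, a partner of BiP in protein quality control, went from 29.2 and 26.3 to 113 and 124 (2.05, limma adjusted p = 0.00029). Creld2 rose from 19.8 and 17.98 to 54.3 and 64.5, and Manf, which binds BiP and protects against ER stress, from 32.8 and 27.1 to 77.4 and 78.0. The lectin chaperone Calr stood at 275 and 220 in the WT clones and at 572 and 598 in the dKO clones, and Hsp90b1, the ER form of HSP90, at 286 and 244 and then at 507 and 509. In each of these genes the dKO clones were close to each other and well above both WT clones.

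Not every gene of the ER took part. P4hb, a protein disulfide isomerase that is also a subunit of collagen prolyl hydroxylase, fell from 596 and 505 FPKM to 240 and 286 (log2 fold change -1.06, limma adjusted p = 0.00104). Ern1, which encodes the sensor IRE1, had 12.2 and 17.6 in the WT clones and 8.24 and 8.85 in the dKO clones, and its call (limma adjusted p = 0.0191) was lost in 4 alternatives, with p of at most 0.0754. Xbp1, the transcription factor that IRE1 activates by splicing, rose from 42.2 and 41.2 to 55.2 and 66.0 (log2 fold change 0.52, limma adjusted p = 0.0121), and splicing was not measured. Atf6, Canx, Herpud1 and Dnajb9 did not pass the test. Removing the median of each chromosome, which was done because chromosomes differed as given below, left the counts at 16 higher and 2 lower.

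In the Jak2WT background the same list had a median of 0.99 between dKO and WT clones. The difference between backgrounds passed the test for 4 of the 22 genes, beside 11.3% of all genes. Herpud1, an ER protein of the degradation machinery, had a log2 fold change of 0.18 in Jak2V617F and 1.23 in Jak2WT (limma adjusted p of the difference = 0.0081), and Dnajb9, a co-chaperone of BiP, -0.33 and 1.00 (0.012). The other 2 were Sdf2l1, with 2.05 and 1.31 (0.027), and P4hb, with -1.06 and -0.26 (0.027).

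The ER stress response element, CCAAT followed after 9 bases by CCACG, was looked for in the RefSeq promoters of GRCm38.p6, each from 250 bases before to 50 bases after a start. It was found on either strand in 13 of the 9770 promoters of genes tested (0.133%). It was in 7 of the 14 promoters of ER chaperone genes called higher (50%), in 8 of the 1482 promoters of all genes called higher, and in 0 of the 1868 of genes called lower. These are the 7 matches with 5 bases on either side, on the strand where the element reads as written, with the element's fixed bases in capitals:
Hspa5, chr2:34772020-34772048 (+): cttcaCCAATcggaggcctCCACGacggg
Hsp90b1, chr10:86705528-86705556 (+): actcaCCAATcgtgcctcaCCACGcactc
Calr, chr8:84847070-84847098 (+): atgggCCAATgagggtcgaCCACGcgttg
Pdia6, chr12:17266486-17266514 (+): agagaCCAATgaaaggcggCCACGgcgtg
Creld2, chr15:88819515-88819543 (-): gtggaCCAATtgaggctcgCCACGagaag
Dnajc3, chr14:118937822-118937850 (+): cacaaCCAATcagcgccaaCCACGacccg
Syvn1, chr19:6046527-6046555 (+): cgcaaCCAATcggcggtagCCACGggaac
They lay between 35 and 153 bases before the start. The shorter CCAAT, which is part of it, was in 92.9% of the 14 promoters and in 38.2% of those of all genes tested. The ER stress element was added after values were seen. ER chaperone genes that were not called were not searched as a set, and no test was run on these shares.

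Genes of the integrated stress response went the other way. Of 23 listed, 17 were tested, and 12 were lower and 1 higher, with a median log2 fold change of -0.64. Atf4, its central transcription factor, fell from 177 and 182 FPKM to 107 and 116 (log2 fold change -0.69, standard error 0.08, limma adjusted p = 0.00118). Asns, the asparagine synthetase that is a classical target of ATF4, fell from 125 and 142 to 47.6 and 57.6 (-1.33, limma adjusted p = 0.000463). Trib3, a pseudokinase that restrains ATF4, fell from 35.7 and 53.9 to 17.7 and 19.1, and the stress protein Nupr1 from 2.88 and 3.98 to 0.172 and 0.331. Nupr1 passed the filter only through the WT clones, and of the other 16 genes 11 were lower and 1 higher. The translational repressor Eif4ebp1 fell from 57.3 and 56.0 to 27.5 and 27.4. Ddit3, which encodes CHOP, had 20.2 and 21.8 in the WT clones and 10.9 and 15.6 in the dKO clones, and its call (limma adjusted p = 0.0165) was lost in 4 alternatives, with p of at most 0.0711.

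The 1 member that rose was Eif2ak2, which encodes the double-stranded RNA kinase PKR and is also induced by interferon. It went from 15.6 in both WT clones to 27.9 and 35.2 (log2 fold change 0.96, limma adjusted p = 0.00127). Eif2ak3, which encodes PERK, and Eif2ak4, which encodes the amino acid sensor GCN2, did not pass the test. These are transcript levels, and the phosphorylation of eIF2alpha or the translation of ATF4 was not measured in these files.

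The aminoacyl-tRNA synthetases of the cytosol, which charge tRNAs and many of which are ATF4 targets, fell as well. Of 20 listed and tested, 14 were lower and 0 higher (1 higher at an unadjusted p under 0.05, and 2 higher with chromosome medians removed), with a median of -0.60. Sars, for serine, fell from 92.0 and 90.4 FPKM to 34.4 and 48.9 (log2 fold change -1.13, limma adjusted p = 0.0018). Nars, for asparagine, fell from 220 and 234 to 100 and 115, and Iars, for isoleucine, from 81.0 and 90.5 to 36.9 and 47.3. Wars, Farsa and Hars, for tryptophan, phenylalanine and histidine, had positive log2 fold changes that did not pass the test.

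Amino acid transporters showed 8 lower and 2 higher of 15 tested, with a median of -0.61. The cystine importer Slc7a11 fell from 5.61 and 8.85 FPKM to 0.936 and 1.58 (log2 fold change -1.85, limma adjusted p = 0.00119). The chains of the leucine transporter fell together, Slc7a5 from 128 and 129 to 72.9 and 59.4 and Slc3a2 from 147 and 157 to 82.0 and 77.5. Slc43a1, another carrier of large neutral amino acids, rose from 6.82 and 5.95 to 23.1 and 21.1 (1.65, limma adjusted p = 0.00029), and the lysosomal exporter Slc36a1 rose from 4.44 and 5.16 to 7.67 and 7.52. The 2 higher and 8 lower calls were the count in each of the fits that left out 1 clone.

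Of 9 genes of serine and one-carbon metabolism, 5 were lower and 2 higher, with 1 higher without WT clone 3, without dKO clone 3 and in the fit of the Jak2V617F groups alone. Mthfd2, the mitochondrial folate dehydrogenase, fell from 62.5 and 71.5 FPKM to 33.0 and 35.9 (log2 fold change -0.94, limma adjusted p = 0.000623), and Psat1 of serine synthesis from 192 and 208 to 106 and 128. Shmt1, the cytosolic serine hydroxymethyltransferase, rose from 17.96 and 17.0 to 33.3 and 38.2 (0.99, limma adjusted p = 0.00097). The list's median of -0.53 became -0.25 with chromosome medians removed, and the call of Phgdh, the first enzyme of serine synthesis, on chromosome 3, was lost there (limma adjusted p = 0.0583).

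For part of these genes the difference between dKO and WT clones itself differed between the backgrounds. In Jak2WT the medians were -0.07 for the integrated stress response, -0.10 for the synthetases and 0.16 for the transporters. For serine and one-carbon metabolism the Jak2WT median was also 0.16. The difference between backgrounds passed for 6 of the 17, 7 of the 20, 5 of the 15 and 2 of the 9 genes. Over all genes it passed for 11.3%, and these counts do not give a direction. Atf4 had a log2 fold change of -0.69 in Jak2V617F and 0.30 in Jak2WT (limma adjusted p of the difference = 0.0081), and Asns -1.33 and -0.07 (0.0098). Atf5, a relative of ATF4, had -0.86 and 1.27 (0.011), although its fall in Jak2V617F (limma adjusted p = 0.016) was lost in 3 alternatives, at 0.0762 at most.

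**Figure D2:**
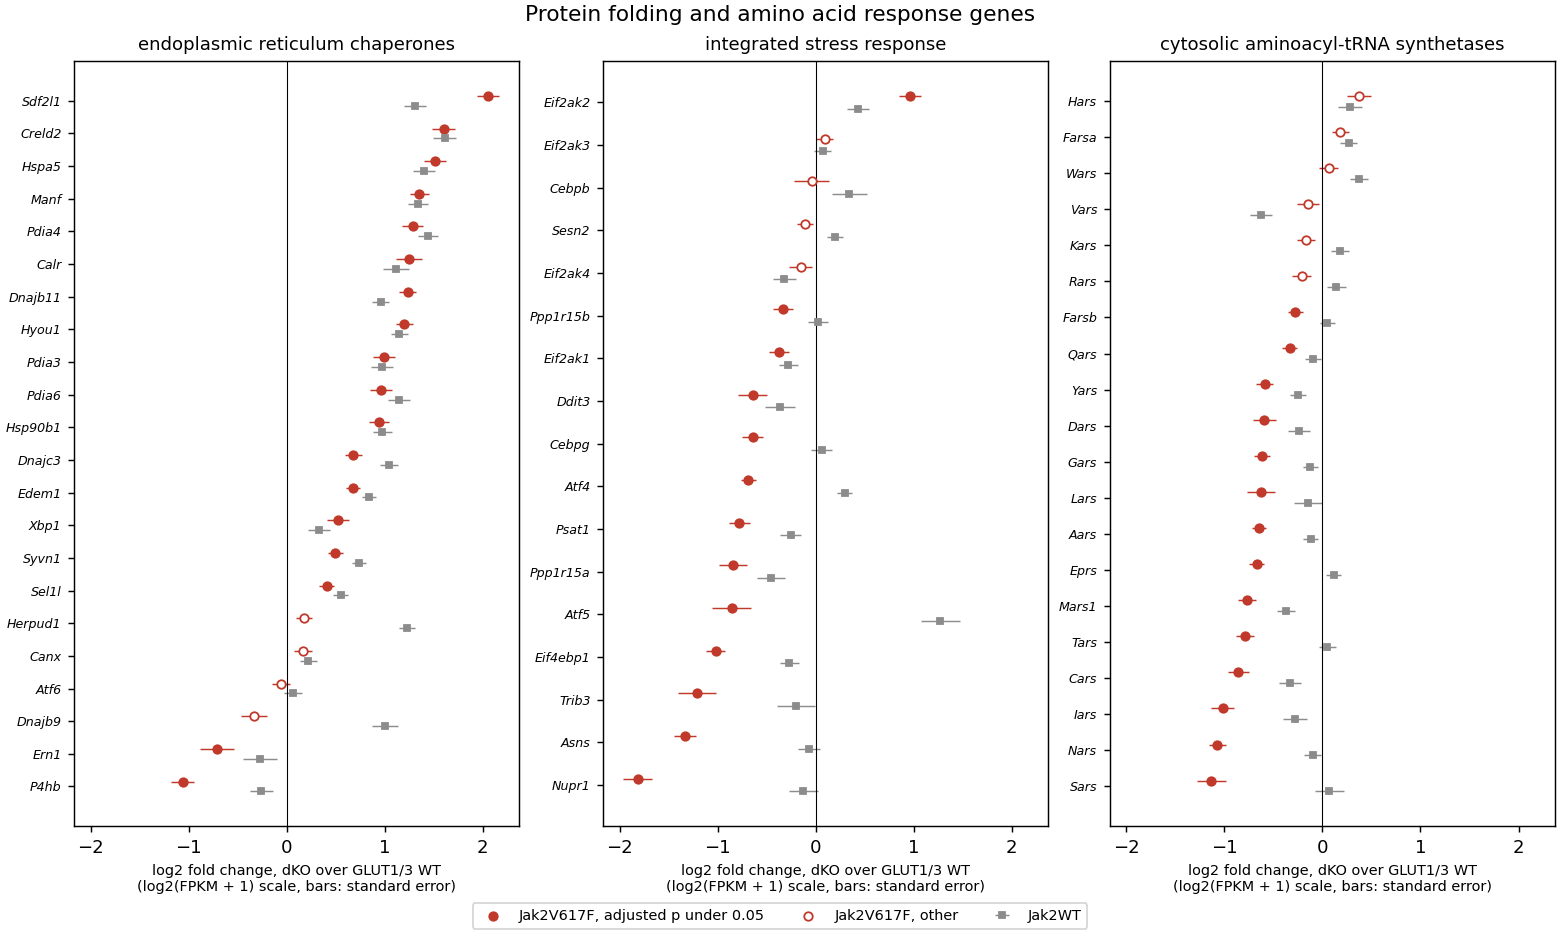
Log2 fold change of dKO over GLUT1/3 WT on the log2(FPKM + 1) scale (horizontal axis, bars are standard errors, n = 2 clones a group) for all tested genes of 3 lists, in Jak2V617F (red, filled where the adjusted p is under 0.05) and Jak2WT (grey). Most ER chaperones lie to the right of 0 in both backgrounds, with P4hb at -1.06 in Jak2V617F, while most integrated stress response and synthetase genes lie to the left of 0 in Jak2V617F and closer to 0 in Jak2WT, with Atf5 at 1.27 there.

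DNA replication genes rose almost without exception. All 40 listed were tested, and 37 were higher and 0 lower (0 lower at an unadjusted p under 0.05), with a median log2 fold change of 0.94. Cdc6, which loads the replicative helicase onto origins, rose from 4.98 and 3.00 FPKM to 20.3 and 21.8 (log2 fold change 2.17, standard error 0.18, limma adjusted p = 0.000436). The helicase subunits rose with it, for example Mcm4 from 25.7 and 21.5 to 75.9 and 81.1 and Mcm6 from 60.1 and 50.5 to 126 and 124. Pcna, the sliding clamp of the polymerases, rose from 83.8 and 68.8 to 191 and 192. Rpa2, a subunit of the protein that coats single-stranded DNA, rose from a mean of 11.9 ± 1.3 to 36.9 ± 1.6 (SD, n = 2 clones each), and Fen1, which trims Okazaki fragments, from 3.49 and 2.31 to 9.80 and 9.89. The dKO clones agreed closely for most of these genes.

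The 3 members that did not pass were Orc2, Rfc1 and Dbf4. Over the fits that each left out 1 clone, 30 to 36 were higher and 0 lower, and 31 were higher in the fit of the Jak2V617F groups alone. Of the 40, 3 lie on chromosome 16, among them Mcm4 and Cdc45, and 39 were higher with chromosome medians removed. In the Jak2WT background the median of the list was 0.06, and the difference between backgrounds passed the test for 30 of the 40 genes.

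Of 12 genes of deoxynucleotide supply, 9 were higher and 0 lower (0 lower at an unadjusted p under 0.05), with a median of 0.83. Rrm2, the S-phase subunit of ribonucleotide reductase, rose from 27.6 and 21.96 FPKM to 71.2 and 70.7 (log2 fold change 1.49, limma adjusted p = 0.000508), and its partner Rrm1 from 30.7 and 26.2 to 45.8 and 47.2. Rrm2b, the p53-controlled form, stayed at 2.11 and 1.85 in the WT clones and 1.74 and 1.80 in the dKO clones. The salvage kinases rose, Tk1 for thymidine from 4.72 and 4.41 to 13.6 and 18.2 and Dck for deoxycytidine from 10.7 and 10.0 to 29.1 and 23.7. Tyms, which makes thymidylate, rose from 6.88 and 6.52 to 14.7 and 15.3. The mitochondrial thymidine kinase Tk2 did not pass the test. In Jak2WT the median was 0.03, and the difference between backgrounds passed for 7 of the 12.

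Among 12 cyclins, kinases and inhibitors of G1, 6 were higher and 1 lower. Ccne1 and Ccne2, the E-type cyclins that open S phase, rose from 6.05 and 4.04 to 20.9 and 17.8 and from 10.0 and 9.33 to 31.4 and 22.99 FPKM. Their kinase Cdk2 rose from 8.45 and 8.08 to 18.1 and 20.2 (log2 fold change 1.12, limma adjusted p = 0.000329). The inhibitor Cdkn1b, known as p27, fell from 43.8 and 50.9 to 21.6 and 27.6 (-0.92, limma adjusted p = 0.00264). Of the other inhibitors, Cdkn2c went from 14.2 and 14.7 to 21.6 and 17.7 and Cdkn2d from 13.7 and 12.9 to 21.3 and 17.0, and both were called higher (limma adjusted p = 0.0271 and 0.024), with the calls lost in 5 alternatives each. Cdkn1a, the p53-induced inhibitor p21, was at 61.7 and 60.1 in the WT clones and at 66.9 and 57.1 in the dKO clones, and of 22 p53 targets 3 were higher and 3 lower, beside 14.6% and 17.4% of all genes, with 0 lower without WT clone 1 or WT clone 3 and 1 lower without dKO clone 3 and in the fit of the Jak2V617F groups alone.

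The E2F and pocket protein list had 7 higher and 1 lower of 13. The activators E2f1 and E2f2 rose, from 4.71 and 4.20 to 10.4 and 10.6 and from 6.67 and 5.26 to 26.1 and 14.2 FPKM. The late repressors E2f7 and E2f8, themselves targets of E2F1, rose from 4.34 and 3.81 to 12.1 and 11.3 and from 9.12 and 8.10 to 22.5 and 19.6. E2f5 fell from 5.45 and 5.52 to 2.99 and 3.49, and E2f4 and Rb1 did not pass the test. The difference between backgrounds passed for 7 of the 13 and for 5 of the 12 G1 genes, where the Jak2WT medians were -0.03 and 0.12.

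Of 30 mitosis genes, 10 were higher and 1 lower, beside 14.6% and 17.4% of all genes, with a median of 0.13. The G2 cyclin Ccnf rose from 7.66 and 7.22 to 15.2 and 15.1 FPKM and Birc5, the survivin subunit of the chromosomal passenger complex, from 17.7 and 17.6 to 30.3 and 32.8. The kinases Plk1 and Aurka and the cyclins Ccnb1 and Ccnb2 did not pass the test, with log2 fold changes between -0.26 and 0.13. The count depended on the clones, with 5 higher and 0 lower in a fit of the Jak2V617F groups alone and also without WT clone 1. The median was -0.02 in dKO clone 1 and 0.27 in dKO clone 3. In the Jak2WT background the median of the mitosis list was -0.39, and the difference passed the test for 13 of the 30 genes.

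**Figure D3:**
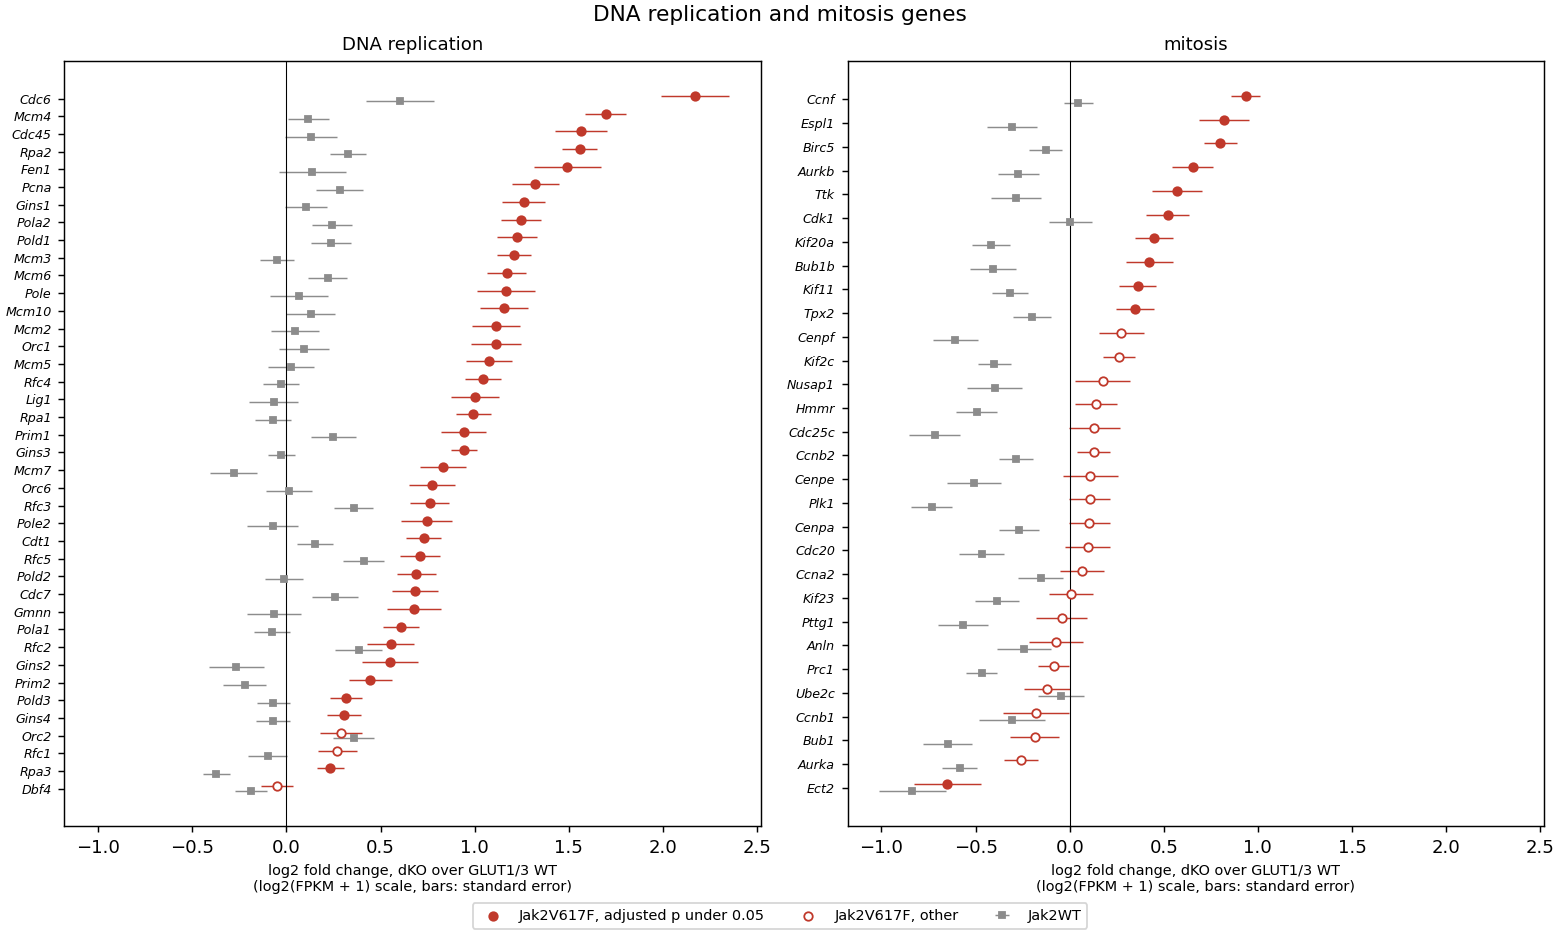
Log2 fold change of dKO over GLUT1/3 WT on the log2(FPKM + 1) scale (horizontal axis, bars are standard errors, n = 2 clones a group) of 40 DNA replication and 30 mitosis genes in Jak2V617F (red, filled where the adjusted p is under 0.05) and Jak2WT (grey). In Jak2V617F 37 replication genes and 10 mitosis genes passed to the right of 0, and most mitosis genes lie to the left of 0 in Jak2WT, where the median was -0.39.

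The E2F motif TTTNGCGC was found on either strand in 28.6% of the 35 promoters of DNA replication genes called higher (10 promoters), in 4.99% of those of all genes called higher, in 2.03% of those of genes called lower and in 2.61% of those of all genes tested. Promoters were at hand for 29 of these 37 replication genes, under 80%, so that the share is of the matched genes alone. As examples, with the motif's fixed bases in capitals:
Mcm6, chr1:128359740-128359757 (-): acgggTTTgGCGCgaagt
Mcm5, chr8:75109355-75109372 (-): gacgtTTTgGCGCgaaag
Orc1, chr4:108579422-108579439 (-): aaactTTTcGCGCcacta
Lig1, chr7:13278847-13278864 (-): acagaTTTcGCGCgcact
A match is a description of these letters in the promoter and no measure of binding.

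Interferon-stimulated genes were higher. Of 30 listed, 21 were tested, and 19 were higher and 0 lower (0 lower at an unadjusted p under 0.05). Of these 21, 9 were under an FPKM of 1 in both WT clones and passed the filter through the dKO clones, and 8 of those 9 were called. Among the other 12, 11 were higher and 0 lower, with a median log2 fold change of 0.75. Ifi27, a mitochondrial interferon-stimulated protein, rose from 66.2 and 74.9 FPKM to 155 and 198 (log2 fold change 1.30, limma adjusted p = 0.000646). Oas2, which makes the 2-5A that activates RNase L, rose from 3.25 and 4.07 to 11.6 and 18.6 and the ubiquitin-like Isg15 from 1.20 and 1.05 to 4.71 and 8.97. Trim30a, an interferon-induced regulator of signalling, rose from 8.75 and 9.08 to 20.1 and 23.9.

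The factors of the response were also among them. Irf7, the amplifier of type I interferon, rose from 0.680 and 0.853 to 3.09 and 5.74 FPKM, and Irf9 and Stat2 of the ISGF3 complex from 3.74 and 4.75 to 6.89 and 8.75 and from 7.37 and 7.12 to 9.27 and 9.43. The Stat2 call (limma adjusted p = 0.0189) was lost in 4 alternatives, at 0.0753 at most. Usp18, which ends interferon receptor signalling, rose from 0.535 and 0.661 to 3.05 and 5.70. Irf7 and Usp18 were among the 9 that passed the filter only through the dKO clones. Ifi27, Oas2, Isg15, Trim30a and these 4 factors all stood higher in dKO clone 3 than in dKO clone 1. The median of the 21 genes, those 9 included, was 1.09 in dKO clone 1 and 1.04 in dKO clone 3. Both dKO clones lay above both WT clones for all 21, which the filter required for those 9. Of all genes tested, 65.2% had both dKO clones on 1 side of both WT clones, in either direction. Over the alternatives that left out 1 clone, 15 to 19 were higher, and 15 were in the fit of the Jak2V617F groups alone. In Jak2WT the median was 0.76, and the difference between backgrounds passed the test for 5 of the 21. Stat2 had 0.33 in Jak2V617F and -0.44 in Jak2WT (limma adjusted p of the difference = 0.0133), and Ifi27 1.30 and 2.16 (0.028).

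Of 15 genes of MHC class I and antigen processing, 6 were higher and 4 lower, with a median of 0.05, -0.14 in dKO clone 1 and 0.23 in dKO clone 3. Without dKO clone 1 and in the fit of the Jak2V617F groups alone 2 were lower. The peptide transporter subunits Tap1 and Tap2 fell, Tap2 from 77.2 and 72.4 FPKM to 38.9 and 38.6 (log2 fold change -0.93, limma adjusted p = 0.000436). Nlrc5, the transactivator of MHC class I, rose from 3.43 and 3.81 to 7.66 and 8.08, and the immunoproteasome subunit Psmb10 from 8.35 and 7.08 to 19.2 and 22.97. Of the 6 that rose, Calr and Pdia3 are also on the list of ER chaperones. B2m, the light chain of MHC class I, was at 613 and 585 in the WT clones and 499 and 551 in the dKO clones, and its log2 fold change of -0.19 in Jak2V617F and 1.16 in Jak2WT differed (limma adjusted p of the difference = 0.0081). The difference between backgrounds passed for 9 of the 15 genes, where the Jak2WT median was 0.68.

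The core of the interferon response element, TTTC repeated after 2 bases, was in 8 of the 16 matched promoters of the interferon genes called higher (50%) and in 3.05% of those of all genes tested. Only 13 of these 19 genes had a promoter, under 80%, and the element was added after values were seen. In Isg15 it lay 61 bases before the start and in Oas3 70 bases before it, with the fixed bases in capitals:
Isg15, chr4:156200870-156200889 (+): gctatTTTCtgTTTCggttt
Oas3, chr5:120777720-120777739 (+): ttcacTTTCgtTTTCtcctc

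Among genes that respond to HIF-1, 28 of 34 targets outside glycolysis were tested, and 24 were lower and 1 higher, with a median log2 fold change of -1.40. The 1 higher gene passed the filter only through the dKO clones. In Jak2WT the median was -0.78, and the difference between backgrounds passed for 9 of the 28. Ero1a, the oxidase that recharges ER disulfide isomerases, fell from 131 and 124 FPKM to 27.1 and 30.2. Egln1, the oxygen sensor PHD2 that marks HIF-1alpha for breakdown, fell from 74.0 and 58.0 to 17.2 and 14.5 (log2 fold change -1.99, limma adjusted p = 0.000329). Hif1a itself fell from 28.0 and 26.4 to 20.1 and 19.0, and its partner Arnt from 12.3 and 12.5 to 6.68 and 7.86. Ddit4, which restrains mTORC1, fell from 93.6 and 80.3 to 27.2 and 28.6.

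Of 9 glycogen genes tested, 5 were lower and 0 higher (1 higher at an unadjusted p under 0.05). Gys1, the glycogen synthase of non-hepatic cells, fell from 38.3 and 33.4 FPKM to 12.2 and 10.0 and Gbe1, the branching enzyme, from 13.6 and 9.55 to 2.75 and 2.58. Gyg, the glycogenin that primes the chain, lies on chromosome 3 in a run of 5 lower genes and fell from 32.3 and 29.3 to 12.3 and 17.9. Bsg, the chaperone of the lactate transporters, fell from 316 and 272 to 141 and 136. The core motif of HIF-1, ACGTG, was in 48.1% of the 54 promoters of HIF-1 targets and glycolytic genes called lower and in 26.8% of those of all genes tested. In Bnip3 and Ankrd37 it read as follows, with the motif in capitals:
Bnip3, chr7:138909604-138909618 (-): gccgcACGTGccaca
Ankrd37, chr8:45999847-45999861 (-): tgggtACGTGaggcc

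Nucleotide sugar genes, which link hexoses to glycosylation, went both ways, with 4 higher and 6 lower of 19, beside 14.6% and 17.4% of all genes, and with 2 higher without dKO clone 3 and in the fit of the Jak2V617F groups alone. Galk1, the galactokinase, fell from 76.2 and 69.9 FPKM to 39.9 and 36.9 and Cmas, which activates sialic acid, from 87.5 and 81.3 to 44.6 and 46.8. Gmppb, which makes the mannose donor GDP-mannose, rose from 3.79 and 2.70 to 7.97 and 7.35 (log2 fold change 1.04). In the purine pathway 6 of 14 genes were higher and 1 lower. Gart and Pfas of de novo synthesis rose, from 23.7 and 19.2 to 45.7 and 39.7 and from 10.8 and 11.6 to 19.0 and 20.9, while the salvage enzyme Hprt, the 1 lower gene, was at 220 and 200 and then at 149 and 147, a call lost without WT clone 1 (limma adjusted p = 0.0561). Only 3 purine genes were higher without WT clone 3 and in the fit of the Jak2V617F groups alone.

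AGATAA, the motif of GATA factors, was in 6.68% of the promoters of genes called higher, 6.05% of those called lower and 6.19% of those tested. TTCNNNGAA, the STAT motif, was in 7.96%, 6.85% and 7%, and CACGTG, bound by Myc and TFE3 families, in 9.51%, 9.53% and 10.4%. TGATGCAA, the composite motif of ATF4, was rare, in 0.472%, 1.18% and 0.573%. TGACNNNGC, the core of the NRF2 element, was in 13.7%, 14.6% and 14.5%. No test was run on these shares.

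Lysosomal genes were lower in part. Of 26 tested, 16 were lower and 0 higher (0 higher at an unadjusted p under 0.05), with a median of -0.43. Asah1, the acid ceramidase, fell from 20.3 and 17.5 FPKM to 7.55 and 9.36 and the membrane protein Lamp2 from 35.1 and 30.1 to 15.5 and 18.2 (log2 fold change -0.91, limma adjusted p = 0.00142). Ctsd and Grn did not pass the test. The proton pump of lysosomes had 10 of 16 subunits lower and 1 higher, Atp6v1b2 falling from 39.5 and 38.2 to 22.02 and 19.6 and Atp6v0d1 from 70.0 and 64.8 to 41.8 and 43.2. These counts shrank to 10 lysosomal and 4 pump genes in a fit of the Jak2V617F groups alone and without WT clone 1. In Jak2WT the medians were -0.03 and 0.07, and the difference passed the test for 9 of the 26 and 6 of the 16 genes. Hmox1, which breaks down heme, fell from 69.2 and 56.6 to 17.5 and 17.8.

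Of the erythroid lists, that of the globins rose as a group. All 7 globin genes tested were higher, 1 of them, Hba-x, having passed the filter only through the dKO clones. The Hba-a1 call was lost in 5 alternatives and the Hba-a2 call in 8, with limma adjusted p of at most 0.128 and 0.189, and 5 globins were higher in the fit of the Jak2V617F groups alone and without dKO clone 1. Of 12 heme synthesis genes 5 were higher and 0 lower, beside 14.6% and 17.4% of all genes. At an unadjusted p under 0.05, 0 were lower. The median was 0.05, and 3 were higher in the fit of the Jak2V617F groups alone. The count of higher genes also fell without WT clone 1 and without WT clone 3. Alad, the second enzyme of the pathway, rose from 17.6 and 14.8 FPKM to 86.1 and 67.5 (log2 fold change 2.17, limma adjusted p = 0.00029) and the housekeeping first enzyme Alas1 from 3.00 and 3.21 to 6.84 and 6.79. Uros, Urod and Fech did not pass the test. The difference between backgrounds passed for 2 of the 7 globins, where the Jak2WT median was 1.18. It passed for 4 of the 12 heme synthesis genes, beside 11.3% of all genes. Of 9 membrane genes 3 rose, among them Kel and the ankyrin Ank1, and 0 fell, beside 14.6% and 17.4% of all genes. At an unadjusted p under 0.05, 1 was lower, and the median was -0.14.

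Of 14 transcription factors of the erythroid and megakaryocytic lineages, 5 were higher and 4 lower, beside 14.6% and 17.4% of all genes. The median of the list was -0.10. The split rested on single clones, with 5 higher and 1 lower without WT clone 1, 2 and 3 without WT clone 3, 3 and 5 without dKO clone 1, 4 and 1 without dKO clone 3, and 3 and 1 in the fit of the Jak2V617F groups alone. Lmo2, a bridging factor of the erythroid complex, rose from 31.9 and 27.5 FPKM to 70.7 and 72.0 (log2 fold change 1.24, limma adjusted p = 0.000394). Gata1, the main erythroid and megakaryocytic factor, was at 58.1 and 48.7 in the WT clones and 41.1 and 34.0 in the dKO clones, and Klf1, an activator of globin genes, at 16.01 and 10.8 and then at 23.6 and 18.3. Their calls, lower for Gata1 and higher for Klf1, were each lost in 4 alternatives, with limma adjusted p of at most 0.111 and 0.166. Myb, a factor of immature progenitors, was at 27.9 and 34.8 and then at 15.1 and 21.1, and its call was lost in 3 alternatives.

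Megakaryocyte genes rose in part, 6 of 9 tested, with 0 lower, beside 14.6% and 17.4% of all genes. At an unadjusted p under 0.05 also 0 were lower. Pf4 and Ppbp passed the filter only through the dKO clones. Of the other 7 genes 4 were higher and 0 lower, with a median log2 fold change of 0.57. In the fit of the Jak2V617F groups alone 4 of the 9 were higher. Gp5, a platelet glycoprotein, went from 1.78 and 1.16 FPKM to 11.7 and 4.71. Itga2b and Itgb3, the integrin of platelets, did not pass the test. Without dKO clone 1, 5 genes of the list were higher and 1 lower.

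Myeloid genes went both ways. Of 5 late neutrophil genes 2 were higher and 0 lower, and of 6 primary granule genes 1 was higher and 1 lower, beside 14.6% higher and 17.4% lower of all genes. Of 4 monocyte and macrophage genes tested 2 were lower, Adgre1, which encodes F4/80, from 64.3 and 46.6 FPKM to 16.3 and 20.3 and the Fc receptor Fcgr1 from 13.9 in both WT clones to 4.13 and 3.37. Cebpe, a factor of granulocyte maturation, fell from 17.98 and 16.3 to 4.20 and 6.80 (log2 fold change -1.51, limma adjusted p = 0.00126). The call of Spi1, the myeloid factor PU.1, was lost without WT clone 1. The 7 monocyte and macrophage markers summed to 86.8 to 102 in the WT clones and 43.1 to 43.2 in the dKO clones, and their part in other differences was not tested.

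Of 12 cytokine receptors 6 were lower and 2 higher, with 4 lower without WT clone 1 and also without WT clone 3. Csf2rb and Csf2rb2, the shared and the IL-3-specific beta chains through which 32D cells receive IL-3, fell from 127 and 131 to 55.4 and 48.9 and from 157 and 161 to 62.5 and 56.2 FPKM (log2 fold changes -1.29 and -1.41). These are close paralogs and their reads may have been shared. The alpha chain Il3ra was at 8.26 and 9.38 and then at 8.89 and 7.99. The difference between backgrounds passed for 5 of the 12 receptors, with a Jak2WT median of -0.06. Il4ra fell from 21.1 and 19.4 to 9.75 and 8.997. The transferrin receptor Tfrc, on chromosome 16, was called higher (log2 fold change 0.79, limma adjusted p = 0.0138) but not without WT clone 3, with no filter or in the fit of the Jak2V617F groups alone, where p was at most 0.0606.

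Targets of STAT5, the main effector of JAK2, went both ways, with 5 higher and 4 lower of 13, beside 14.6% and 17.4% of all genes. Of the 5, 1 passed the filter only through the dKO clones, and of the other 12 genes 4 were higher and 4 lower. Id1 rose from 96.1 and 78.4 to 158 and 137 FPKM (log2 fold change 0.76, limma adjusted p = 0.008). Cish and Socs3, feedback inhibitors of the pathway, were at 15.1 and 16.7 and then 25.3 and 20.2, and at 2.78 and 1.90 and then 6.57 and 4.10, and both calls were lost in 4 alternatives, with limma adjusted p of at most 0.109. The kinase Pim1 was at 223 and 214 in the WT clones and at 171 and 150 in the dKO clones, and its call was lost without WT clone 1 and in the fit of the Jak2V617F groups alone (limma adjusted p of at most 0.0561). The split was not firm: without dKO clone 1 there were 1 higher and 3 lower, and in the fit of the Jak2V617F groups alone 3 higher and 0 lower. In the Myc network 5 of 9 genes were lower (3 without WT clone 1 and 2 in the fit of the Jak2V617F groups alone), Mycn falling from 120 and 122 to 64.9 and 48.5, and Mxd3, a Myc antagonist of cycling cells, was at 0.887 and 0.807 and then at 3.59 and 3.096. Mxd3, the 1 higher gene of this list, passed the filter only through the dKO clones, and of the other 8 genes 0 were higher.

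**Figure D4:**
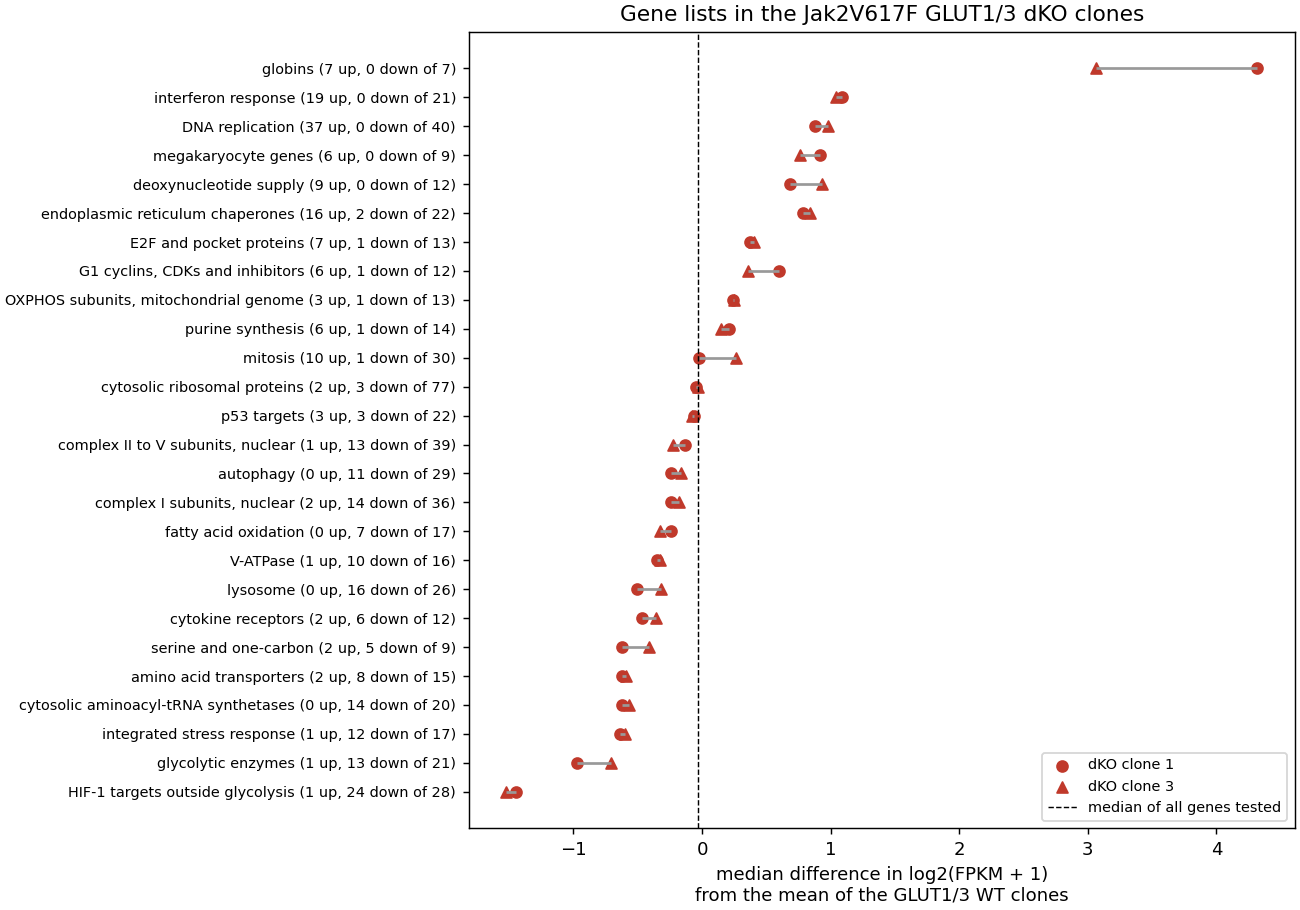
Median difference in log2(FPKM + 1) from the mean of the GLUT1/3 WT clones (horizontal axis) over the tested genes of 26 lists, for dKO clone 1 (circles) and dKO clone 3 (triangles), with the numbers called higher (up) and lower (down) and the median of all genes (dashed line). Both clones lie on the same side of the dashed line for most lists, with globins from 3.06 to 4.32 and HIF-1 targets outside glycolysis below -1.40 at the ends.

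Changes were not spread evenly over the chromosomes. Of 350 genes tested on chromosome 16, 141 (40.3%) were higher and 18 lower, with a median log2 fold change of 0.29. On chromosome 3, 27 of 524 were higher and 178 (34.0%) lower, with a median of -0.28. Chromosome 13 had a median of -0.35 in dKO clone 1 and 0.00 in dKO clone 3, and chromosome 5 of -0.02 and -0.19. In Jak2WT the chromosome medians between dKO and WT clones ran from -0.0296 to 0.0342.

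Set against the mean of the 4 Jak2WT libraries, the chromosome 16 shift lay in the WT clones. Their medians were -0.28 and -0.34, and those of the dKO clones 0.02 and -0.07. On chromosome 3 the WT clones had 0.09 and 0.08 and the dKO clones -0.31 and -0.10, so that there the dKO clones stood apart. The tested genes of chromosomes 3, 13 and 16 were cut by position into 5 equal parts. Over both dKO clones together, the median of every part lay on the side of its chromosome. In dKO clone 3 alone the medians of the parts of chromosome 13 ran from -0.04 to 0.04. The number of copies of a chromosome was not measured, and its part in the calls was not tested. With each library's chromosome medians removed, 1833 genes were higher and 1852 lower, and 3155 calls were shared with the comparison above.

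**Figure D5:**
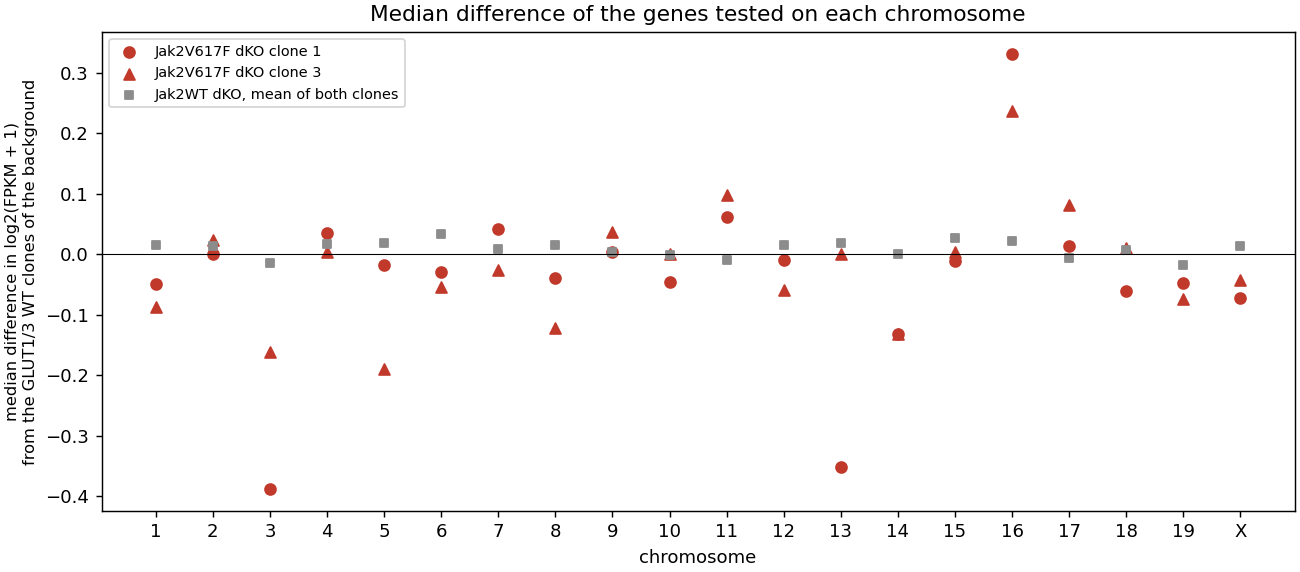
Median difference in log2(FPKM + 1) from the GLUT1/3 WT clones of the same background (vertical axis) over the genes tested on each chromosome, for Jak2V617F dKO clone 1 (circles), dKO clone 3 (triangles) and the mean of the Jak2WT dKO clones (grey squares). Chromosome 16 lies above and chromosome 3 below 0 in both Jak2V617F dKO clones, chromosome 13 lies at -0.35 in dKO clone 1 alone, and the grey squares stay close to 0.

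Neighbouring genes called in 1 direction formed runs of up to 7. On chromosome 16 a run of 7 higher genes went from Lztr1 to Ess2 (chr16:17326552-17729212), with log2 fold changes of 0.29 to 0.86, and on chromosome 3 a run of 7 lower genes went from Naa15 to Nhlrc3 (chr3:51322569-53370753), with -0.95 to -0.43. On chromosome 13 the T cell receptor gamma locus fell in 2 runs, from Vps41 to Trgc1 and from Trgv1 to Epdr1, with changes of -2.30 to -0.57. Trgc1, the constant region of the first cluster, went from 351 in both WT clones to 82.1 and 60.2 FPKM (log2 fold change -2.30, limma adjusted p = 0.00029), and by -0.53 in Jak2WT (limma adjusted p of the difference = 0.0081). On chromosome 12, Ifi27, Ifi27l2a and Serpina3g closed a run of 5 higher genes, and on chromosome 6 a run of 5 higher genes ended with Foxm1, a factor of mitotic genes, which rose from 7.56 and 8.44 to 13.7 and 13.6.

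Clones of a group differed by a median of 0.14 on the log2(FPKM + 1) scale in both groups, and by more than 1 for 180 genes between the WT clones and 187 between the dKO clones. The largest differences between the WT clones were those of the pseudogenes Gm10123, with 685 and 130 FPKM, and Gm10241, the lncRNA Gm10076, the respiratory subunit Ndufa12 and the granzyme Gzmb, with 62.2 and 16.9. Between the dKO clones they were those of Pf4, Serpina3g and 3 processed pseudogenes, Rpl30-ps10, Rpl30-ps1 and Gm12191, of which Rpl30-ps10 and Rpl30-ps1 are copies of a ribosomal protein gene. Rpl30-ps10 had 16.2 and 104 in dKO clones 1 and 3 and 36.2 and 14.4 in the WT clones, which overlap. Reads of such pseudogenes can come from the parent gene.

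The libraries were polyA-enriched, and how fully they hold mitochondrial and small RNAs was not tested. The 12S ribosomal RNA mt-Rnr1 fell from 334 and 309 to 158 and 189 FPKM (log2 fold change -0.89, limma adjusted p = 0.00121), and mt-Atp8, the shortest of the 13 mitochondrial protein genes, from 127 and 117 to 58.8 and 65.9. Of those 13 genes 3 were higher and 1 lower, beside 14.6% and 17.4% of all genes. With libraries scaled to the same FPKM total 6 were higher, and in the fit of the Jak2V617F groups alone 0 were higher. The higher calls were also lost without dKO clone 1 and without WT clone 3. Among 120 snoRNA genes tested 14 were higher and 3 lower, beside 14.6% and 17.4% of all genes, with a median of 0.40. Most snoRNAs lie in introns of other genes, so that their reads may belong to the host transcript.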

How the data were processed

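RNA was sequenced from polyA-enriched libraries of 8 single-cell clones of 32D cells, 2 in each of 4 groups, and mapped to groups by the sample labels. The authors deposited 1 table of FPKM values (fragments scaled to gene length and to a library total), with 0 columns of other samples. The submitters' processing notes name trimming with fastp 1.0.1, alignment by HISAT2 (version 2.2.1) to the build mm39 and counting with featureCounts, version 2.0.6. The annotation version, the total behind FPKM and the use of strand are not given in the sources used here. Without known strand, overlapping and antisense genes cannot be separated.

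FPKM steps gave whole reads in 100% of values (tolerance 0.01), so that depth could be recovered, and these reads were used in voom only. Log2(FPKM + 1) was fitted with limma 3.58.1 (R 4.3.3) as 4 group means over all 8 libraries, with empirical Bayes variance trended on expression. P-values were adjusted by Benjamini-Hochberg over 11275 genes, with a threshold of 0.05, and fold changes on this scale understate those of low genes. The difference between backgrounds is the interaction in the same fit. The 2 libraries of a group came from separate clones, and p-values measure the spread between clones. Tables and plots were made with Python 3.11.15, pandas 2.3.3 and matplotlib 3.10.9. Simulated data for this comparison had 11253 genes, 200 of them changed 2-fold, and a coefficient of variation of 0.1. In these data limma recovered 182 (91%) and called 21 unchanged genes. It called 2 genes where none was changed. The simulation drew each gene independently at this 1 coefficient, without chromosome-wide shifts, and changed far fewer genes than were called here. Its counts therefore do not measure the error of the calls reported.

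The members and gene lists were chosen with earlier results of these data known. Named genes were Slc2a1, Slc2a3 and Jak2, the 15 largest changes in each direction among protein-coding genes called, with non-overlapping clones and a mean FPKM of at least 5, the 5 genes that differed most between clones of each group at a mean of at least 10, members of lists, and genes in runs of at least 5 neighbours called in 1 direction. Both strands were searched for the motif ACGTG of HIF-1, for CACGTG of the Myc and TFE3 families, which holds the former, and for the E2F motif TTTNGCGC. The other motifs were CCAAT of NF-Y, the ATF4 motif TGATGCAA, the NRF2 core TGACNNNGC, the STAT motif TTCNNNGAA and the GATA motif AGATAA, and the ER stress and interferon elements were added after values were seen. Promoters were matched for 7698 of 9499 protein-coding genes tested. Alternatives were other pseudocounts, filters, variance models, scalings, the Jak2V617F groups alone, a replicate block, each clone left out and, chosen after seeing the data, chromosome medians removed. A further Slc2a1 guide, a shared transgene and some genes of the lists are not reported here.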

Additional observations from a re-analysis of the deposited data

Results flagged for a closer look

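Of the 30 genes with the largest changes in Jak2V617F, 16 differed between backgrounds by the interaction in limma (adjusted p under 0.05), beside 11.3% of all genes tested, and each is given as the Jak2V617F minus the Jak2WT log2 fold change. The positive differences were 3.60 for Sval1, which was at 0 in the 4 Jak2WT libraries, 3.08 for Hba-x, 2.05 for Hbb-bh1, 1.91 for Alox5, 1.87 for Kel and 1.41 for Ifi47. The negative ones were -3.73 for Xdh, -3.27 for Wwox, -2.57 for Anxa1, -2.25 for Epdr1, -2.18 for Gng2, -1.87 for C3, -1.84 for Lgmn, -1.42 for Pde3b, -1.39 for St8sia4 and -0.99 for Bnip3. Being among the largest changes in Jak2V617F raises the size and the number of these differences, since the same values enter both. Of all 3603 genes called in Jak2V617F, 982 had such a difference. Sval1, Hba-x, Alox5 and Gng2 had passed the filter through 1 group only. Xdh had opposite signs in the backgrounds, -2.53 in Jak2V617F and 1.19 in Jak2WT.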

How the results depend on the processing

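No alternative gave a call in the opposite direction. Of 508 named or listed genes called, 297 kept the call in every alternative that tested them, and 204 of 1005 recomputed list medians moved. The Jak2V617F groups alone, with the spread from 4 libraries instead of 8, gave 878 higher and 1002 lower genes. Genes with a difference between backgrounds numbered 346 with no filter. Leaving out 1 clone, where the lone clone is assumed to vary like those of the other groups, gave 1141 to 1304 higher, 1060 to 1749 lower and 420 to 1323 differing between backgrounds, against 1645, 1958 and 1269. The low ends of the last 2 were without Jak2V617F GLUT1/3 WT clone 1, and 841 differed without WT clone 3. Slc2a1 ran from -2.107 to -1.696 and Slc2a3 from -2.881 to -1.893 on the log2 scale, the latter with an adjusted p of 0.0549 without WT clone 1 and, at -2.387, 0.0557 with no filter. Mrpl39, on chromosome 16, was 0.28 and had -0.001 (limma adjusted p = 0.992) with chromosome medians removed. For other changes of a call the cause was not tested.

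Clone numbers name clones and do not pair them: the clone differences correlated at 0.0229 between the Jak2V617F groups, at -0.0783 between the Jak2WT groups, at -0.275 between the GLUT1/3 WT groups and at 0.0389 between the dKO groups. With a replicate block, 1528 genes were higher, 1779 lower and 996 differed between backgrounds, and 3197 calls were shared.

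An FPKM of 1 stood for 21.4 to 34.8 reads in a gene of 1 kb over the 4 Jak2V617F libraries, which limits the precision of low genes.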
